A study of Homo sapiens with 15 samples.

Results

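The keratins examined here are 10 genes chosen by name: the basal keratins KRT5, KRT14 and KRT15, the stress keratins KRT6B, KRT16 and KRT17, and the keratins of simple and luminal epithelium KRT7, KRT8, KRT18 and KRT19. Of these 10, 8 had a probe set annotated to their symbol, out of 11963 genes in the table, and KRT6B and KRT17 were not analysed here. All samples were MCF-10A cells, an established, immortalized and non-tumorigenic human mammary epithelial line, with total RNA taken 48 hours after viral infection and hybridized to Affymetrix arrays, 15 in all. The knockdown arm had 2 arrays each of cells with a vector control for short hairpin RNA (shRNA), with an shRNA against the DNA-binding domain of every p63 isoform (shDBD), and with an shRNA against the isoforms that carry the transactivation domain (shTA). The overexpression arm had 3 arrays each of cells with a vector control, with the isoform ΔNp63α, which lacks that domain at its N-terminus, and with the isoform TAp63γ, which carries it. The labels name retroviral or adenoviral infection without saying which arm received which virus, and do not name a promoter for either vector. They call the replicates biological without saying whether these were separate infections, so the p-values measure the spread between these arrays.

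Keratins form the intermediate filaments of epithelial cells, which give the cells mechanical strength and are anchored at desmosomes and hemidesmosomes. A filament is built from pairs of an acidic type I chain (KRT14 to KRT19 here) and a basic type II chain (KRT5 to KRT8 here). KRT5 pairs with KRT14 in basal cells of stratified and mammary epithelium, KRT16 pairs with KRT6 chains in wounded or hyperproliferative epithelium, and KRT8 pairs with KRT18 in simple and luminal epithelium. p63 is a transcription factor of the p53 family found in basal cells, and basal keratins are among the genes it is known to regulate.

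Levels are log2 values as the authors deposited them, made by robust multiarray averaging (RMA). Of the 8 keratins, 7 lay well above the low end of every array, and KRT19 lay below the 20th percentile on all 15 arrays (4.405 to 4.996), so it is not shown to be above background in any group. The KRT7, KRT8 and KRT18 probe sets bear a suffix by which the array maker marks probes that may also bind other transcripts, and KRT8 and KRT18 have many processed pseudogenes. The KRT5, KRT7, KRT14 and KRT18 signals were among the brightest of their arrays in every group (mean percentile 96.2 or higher), a range in which array signal is known to saturate. ΔNp63α replicate 3 was the lowest array of its group for 8 of 8 keratins and for 41.7% of all genes. The changes of the keratins measured above background in that group are also given without it. Other groups held such arrays too. Overexpression vector replicate 1 (41% of all genes), TAp63γ replicate 2 (38.9%) and shRNA vector replicate 1 (47.9%, in a group of 2) were each lowest for 7 of 8 keratins. Markers of other cells were mostly low. Fibroblast (10 genes), immune (8), and endothelial and adipocyte (9) lists summed to between 8.68 and 11.47 on the log2 scale. The sum was 13.9 to 15.51 for 23 luminal genes other than keratins, and the longer list adds to this contrast. Replicate arrays correlated at 0.9925 or more over all probe sets. No check of the labels was made from p63 transcripts, which are not analysed here. In bulk RNA, a change in the share of cells that express a keratin and a change per cell cannot be told apart.

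**Figure D1:**
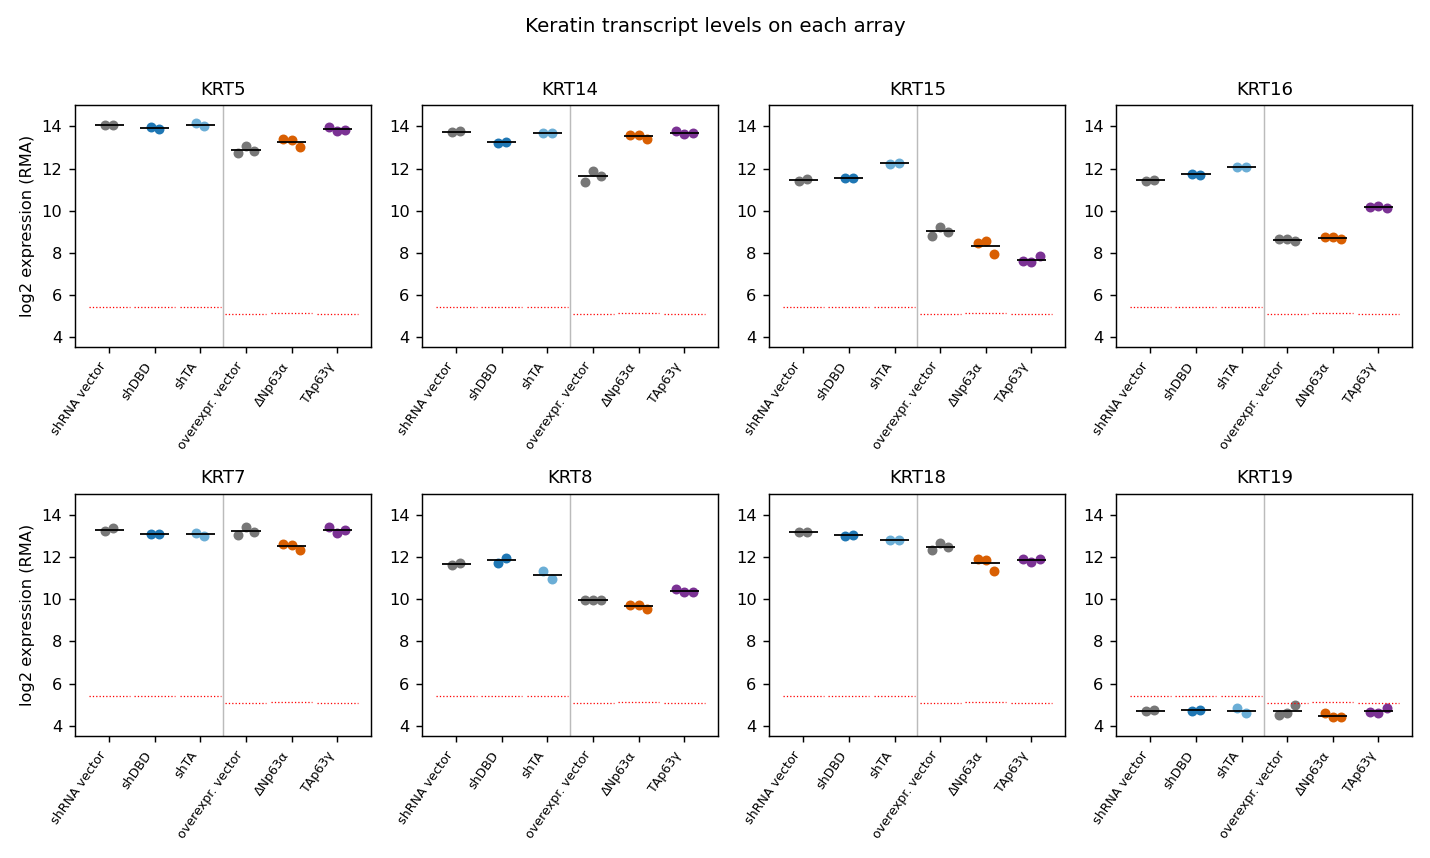
Level of each keratin on every array (y axis: RMA log2 expression; x axis: the 6 groups, knockdown arm left of the grey line and overexpression arm right of it). Each point is an array, each black bar a group mean, and each red dotted line the mean 20th percentile of the group's arrays; KRT14 rises from 11.63 in the overexpression vector to 13.53 and 13.71, while KRT19 stays under the dotted lines.

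In the comparison of shDBD with its vector, which asks what depends on p63 of any isoform, KRT14 fell by 0.49 ± 0.11 (log2 ± SE, n = 2 per group; limma adjusted p = 0.00592) and KRT16 rose by 0.29 ± 0.081 (adjusted p = 0.0164). Of the 8 keratins, 1 rose, against 11.1% of all genes, and 1 fell, against 10.2%, so neither share stands far from that of all genes (21.3% in either direction). Arrays of both groups did not overlap for 61.7% of all genes. With shTA, directed at the isoforms with the transactivation domain, KRT15 rose by 0.81 ± 0.17 (adjusted p = 0.0221), KRT16 rose by 0.63 ± 0.081 (adjusted p = 0.000327) and KRT8 fell by 0.51 ± 0.12 (adjusted p = 0.0405). The 2 of 8 keratins that rose stood against 1.44% of all genes and the 1 that fell against 0.853% (2.29% in either direction, and 50.7% with no overlap of the arrays). Several of these calls were lost when an array was left out, which leaves 1 array in a group of 2, as given with each gene below. Both comparisons share the same 2 vector arrays.

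In the comparison of ΔNp63α with its vector, KRT14 and KRT5 rose and KRT15, KRT18, KRT7 and KRT8 fell. These 2 rises and 4 falls among 8 keratins stood against 12.3% of all genes called higher and 16.6% called lower (28.9% in either direction, and 36.5% with no overlap of the arrays). With TAp63γ, KRT14, KRT16, KRT5 and KRT8 rose and KRT15 and KRT18 fell, so 4 of 8 keratins rose, against 20.5% of all genes, and 2 fell, against 22.8% (43.4% in either direction, and 49.9% with no overlap). KRT14 had the largest change of the 8 keratins with each isoform, and the 2 comparisons share the same 3 vector arrays. The median change of the 8 keratins was −0.27 with ΔNp63α and 0.24 with TAp63γ, against −0.01 and −0.02 over all genes.

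**Figure D2:**
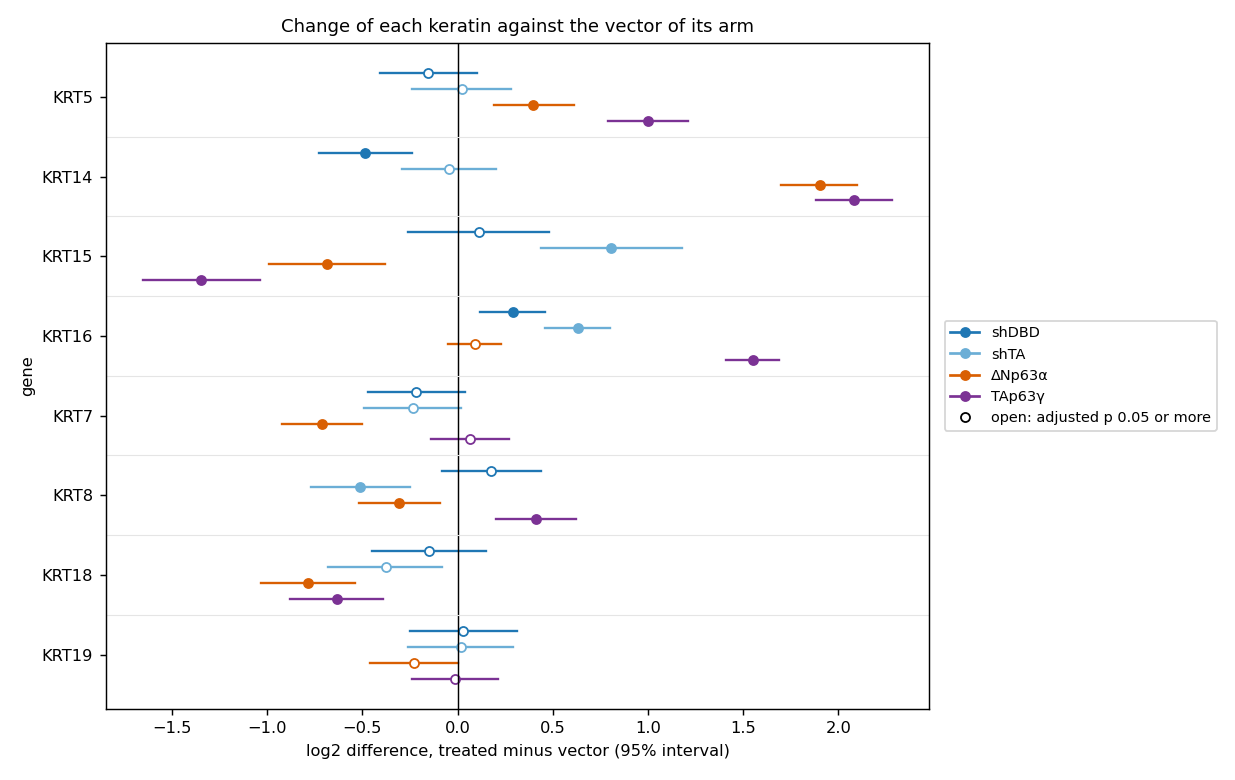
Change of each of the 8 keratins against the vector of its arm (x axis: log2 difference, treated minus vector; y axis: gene), as limma estimates with 95% intervals. Filled points passed an adjusted p of 0.05 and open points did not; KRT14 stands at 1.90 and 2.08 with ΔNp63α and TAp63γ and at −0.49 with shDBD.

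KRT14, the type I chain of basal cells, read 11.38, 11.87 and 11.63 on the arrays of the overexpression vector. It read 13.58, 13.61 and 13.39 with ΔNp63α and 13.77, 13.66 and 13.71 with TAp63γ. Every array of either isoform lay above every vector array. The rise was 1.90 ± 0.094 with ΔNp63α (3.74-fold, n = 3 per group, adjusted p = 5.98e-10) and 2.08 ± 0.094 with TAp63γ (4.24-fold, adjusted p = 7.58e-11). The former was 1.97 without ΔNp63α replicate 3. The isoforms themselves did not differ past the threshold (ΔNp63α minus TAp63γ −0.18 ± 0.094, 95% interval −0.38 to 0.02, adjusted p = 0.143), although their arrays did not overlap and the call was made without overexpression vector replicate 2 (0.0499). Their difference was −0.11 without ΔNp63α replicate 3 (adjusted p = 0.411). With shDBD, KRT14 read 13.23 and 13.28, below both the shRNA vector (13.72 and 13.77) and shTA (13.71 and 13.69). The fall against the vector was 1.40-fold. Leaving out shDBD replicate 1 ended the call (adjusted p = 0.0508), as did leaving out the second array of the shRNA vector (0.0516). With shTA the change against the vector was −0.04 ± 0.11 (adjusted p = 0.933). Among the knockdown groups KRT14 was thus lowest with shDBD, and the difference between shTA and vector did not pass, although the 2 arrays of each did not overlap.

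KRT5, the type II partner of KRT14, read 12.72, 13.06 and 12.84 with the overexpression vector, 13.42, 13.36 and 13.03 with ΔNp63α, and 13.99, 13.78 and 13.85 with TAp63γ. The TAp63γ arrays were all above the other 6, whereas the lowest ΔNp63α array lay just under the highest vector array. The rise was 0.40 ± 0.098 with ΔNp63α (1.32-fold, adjusted p = 0.00598) and 0.998 ± 0.098 with TAp63γ (2-fold, adjusted p = 5.59e-07). Without ΔNp63α replicate 3 the former was 0.52 (adjusted p = 0.000175). KRT5 was higher with TAp63γ than with ΔNp63α (ΔNp63α minus TAp63γ −0.60 ± 0.098, adjusted p = 0.000147; −0.48 without ΔNp63α replicate 3), so its levels ran from vector through ΔNp63α to TAp63γ. In the knockdown arm KRT5 read 14.06 and 14.08 with the vector, 13.97 and 13.86 with shDBD, and 14.15 and 14.04 with shTA. Neither hairpin passed against the vector (shDBD −0.16, 95% interval −0.41 to 0.10, adjusted p = 0.439; shTA 0.02, interval −0.24 to 0.28, adjusted p = 0.975). With ΔNp63α the interval of the KRT5 change (0.19 to 0.61) lay below that of KRT14 (1.70 to 2.10), and a difference between both genes was not tested.

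RefSeq promoter sequences (GRCh38.p14) were matched for 2 of the 10 keratins, KRT5 and KRT8. The 250 bases before the KRT5 start are shown because KRT5 rose with both isoforms and the window holds the p53-family half-site decamer. It lies at chr12:52520395-52520644 on the minus strand, and the capitals mark the decamer, whose first base is 97 bases before the start:
KRT5 promoter: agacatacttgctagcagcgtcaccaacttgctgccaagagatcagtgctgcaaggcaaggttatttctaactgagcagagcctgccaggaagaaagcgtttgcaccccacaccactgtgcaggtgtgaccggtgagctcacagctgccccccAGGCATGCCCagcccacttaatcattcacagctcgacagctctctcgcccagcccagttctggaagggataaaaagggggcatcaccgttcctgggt

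The decamer was searched on both strands by its consensus, and CATG, only 1 of the cores that this consensus allows, separately. Each decamer shown holds a CATG, so the searches overlap. The decamer occurred in 5.57% of 35116 RefSeq promoters of this length, and CATG in 47.6%. The KRT5 window held 1 of each. The KRT8 window, also on chromosome 12, held 1 decamer, AGACATGCCC, 136 bases before the start that the table gives, and 3 CATG; that start lies inside the annotated gene and may not be the one used. KRT8 rose with TAp63γ and fell with ΔNp63α. The TGANTCA motif of AP-1 factors occurred in 6.57% of promoters and in neither of these windows. These are letter matches. Each decamer is a half-site, a full site was not searched for, and binding was not measured.

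KRT15, a type I chain of basal and progenitor cells, moved against KRT5 and KRT14 in the overexpression arm. It read 8.81, 9.23 and 8.99 with the vector, 8.46, 8.57 and 7.95 with ΔNp63α, and 7.59, 7.55 and 7.85 with TAp63γ. The 3 groups did not overlap. KRT15 fell by 0.69 ± 0.14 with ΔNp63α (1.61-fold, adjusted p = 0.00161). It fell by 1.345 ± 0.14 with TAp63γ (2.54-fold, adjusted p = 1.19e-06), and was higher with ΔNp63α than with TAp63γ by 0.66 ± 0.14 (adjusted p = 0.00146). Without ΔNp63α replicate 3 the change with ΔNp63α was −0.50 (adjusted p = 0.00291) and the difference between the isoforms 0.85. Under knockdown it read 11.39 and 11.50 with the vector, 11.54 and 11.57 with shDBD, and 12.22 and 12.28 with shTA. The shTA arrays stood above the other 4, and KRT15 was 1.75-fold higher than with the vector. That call was lost when any 1 of the 4 arrays compared was left out (adjusted p = 0.108 to 0.206), while the change stayed between 0.76 and 0.86. With shDBD the change was 0.11 ± 0.17 (adjusted p = 0.755).

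KRT16, the type I chain of wounded and hyperproliferative epithelium, was the only stress keratin measured. With the overexpression vector it read 8.64, 8.64 and 8.57, with ΔNp63α 8.75, 8.77 and 8.63, and with TAp63γ 10.16, 10.21 and 10.14. The vector and ΔNp63α arrays overlapped, and all 3 TAp63γ arrays stood apart above them. KRT16 rose by 1.55 ± 0.066 with TAp63γ (2.93-fold, adjusted p = 3.95e-11), its change with ΔNp63α was 0.09 ± 0.066 (95% interval −0.05 to 0.23, adjusted p = 0.336), and the isoforms differed by −1.46 ± 0.066 (ΔNp63α minus TAp63γ, 2.74-fold, adjusted p = 2.38e-10). Without ΔNp63α replicate 3 the change with ΔNp63α was 0.14 (adjusted p = 0.145) and the isoforms differed by −1.41. In the knockdown arm it read 11.40 and 11.47 with the vector, 11.76 and 11.70 with shDBD, and 12.08 and 12.06 with shTA. The groups did not overlap. The rise with shTA was 1.55-fold and was called in all 15 fits that left out an array. The 1.22-fold rise with shDBD was lost when any 1 of its 4 arrays was left out (adjusted p = 0.0503 to 0.138). KRT16 was lower with shDBD than with shTA by 0.34 ± 0.081 (adjusted p = 0.00695), a call that was lost without shDBD replicate 2 (adjusted p = 0.0617).

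KRT8 and KRT18, the partner chains of simple epithelium, changed in different ways with TAp63γ. KRT8, the type II chain, read 9.97, 9.98 and 9.99 with the overexpression vector, 9.74, 9.72 and 9.56 with ΔNp63α, and 10.48, 10.33 and 10.36 with TAp63γ. The 3 groups did not overlap. KRT8 rose by 0.41 ± 0.099 with TAp63γ (1.33-fold, adjusted p = 0.0029) and fell by 0.31 ± 0.099 with ΔNp63α (1.24-fold, adjusted p = 0.0306). The fall was lost without overexpression vector replicate 1, 2 or 3 (adjusted p = 0.0612, 0.0644 and 0.0785) or ΔNp63α replicate 3 (−0.25, adjusted p = 0.0925), whereas the difference between the isoforms, −0.72 ± 0.099 (adjusted p = 3.33e-05), was called in all 15 fits that left out an array and was −0.66 without ΔNp63α replicate 3. KRT18, the type I chain, read 12.36, 12.67 and 12.49 with the vector, 11.94, 11.86 and 11.37 with ΔNp63α, and 11.93, 11.79 and 11.91 with TAp63γ. Every array of either isoform was below every vector array. KRT18 fell by 0.79 ± 0.12 with ΔNp63α (1.72-fold, adjusted p = 8.55e-05) and by 0.63 ± 0.12 with TAp63γ (1.55-fold, adjusted p = 0.000287). The former change was −0.61 without ΔNp63α replicate 3. The isoforms differed by −0.15 (95% interval −0.40 to 0.09, adjusted p = 0.329), and by 0.02 without that array.

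In the knockdown arm KRT8 read 11.62 and 11.75 with the vector, 11.75 and 11.98 with shDBD, and 11.37 and 10.97 with shTA. The shTA arrays were lowest, and shDBD and vector overlapped. The fall with shTA was 1.42-fold, and the change was −0.31 in place of −0.51 without shTA replicate 2. Its call ended when shRNA vector replicate 1 (adjusted p = 0.148), shRNA vector replicate 2 (0.27) or shTA replicate 2 (0.476) was left out, and also when any of 5 overexpression arrays, which enter through the shared spread, was left out (0.0509 to 0.065). Set against each other, KRT8 was higher with shDBD than with shTA by 0.69 ± 0.12 (1.61-fold, adjusted p = 0.000793), and that call was kept in all 15 fits that left out an array. KRT18 read 13.21 and 13.19 with the vector, 13.03 and 13.07 with shDBD, and 12.81 and 12.84 with shTA. Its groups did not overlap, but neither change passed (shDBD −0.15 ± 0.14, adjusted p = 0.552; shTA −0.38 ± 0.14, adjusted p = 0.223). With the arms fitted separately both passed (adjusted p = 0.0486 and 0.00107), and without ΔNp63α replicate 3, which enters through the shared spread, shTA passed (0.0198).

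KRT7, a type II chain of simple and glandular epithelium, read 13.08, 13.42 and 13.22 with the overexpression vector, 12.63, 12.60 and 12.36 with ΔNp63α, and 13.46, 13.15 and 13.31 with TAp63γ. The ΔNp63α arrays were the lowest 3 of the 9. KRT7 fell by 0.71 ± 0.097 with ΔNp63α (1.64-fold, adjusted p = 4.44e-05). With TAp63γ its change was 0.07 ± 0.097 (95% interval −0.14 to 0.27, adjusted p = 0.643), and the isoforms differed by −0.78 ± 0.097 (adjusted p = 1.31e-05). Without ΔNp63α replicate 3 these values were −0.63 against the vector and −0.69 between the isoforms. A second, dimmer KRT7 probe set (mean 5.69) was not called: it changed by −0.10 with ΔNp63α, and the isoforms differed on it by −0.005. With the mean of both probe sets KRT7 changed by −0.41 with ΔNp63α and differed by −0.39 between the isoforms, and both calls stood (adjusted p = 0.000281 and 0.000265). With the hairpins and their vector, KRT7 read 13.25 and 13.40 with the vector, 13.10 and 13.12 with shDBD, and 13.18 and 13.00 with shTA. Neither hairpin passed (shDBD −0.22 ± 0.12, adjusted p = 0.25; shTA −0.23 ± 0.12, adjusted p = 0.443), while with the arms fitted separately shDBD did (adjusted p = 0.0322). KRT19, a type I chain of luminal cells, passed in none of the 6 comparisons at its background level.

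**Figure D3:**
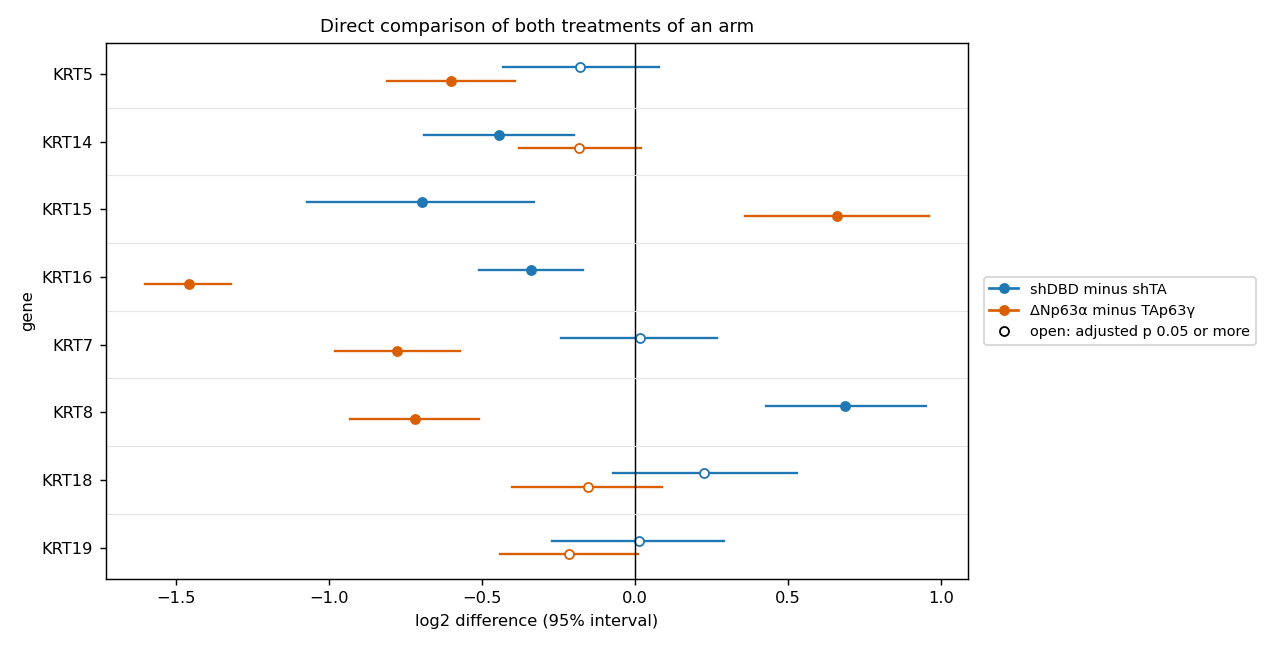
Direct comparison of both treatments of each arm for the 8 keratins (x axis: log2 difference; y axis: gene), as limma estimates with 95% intervals; filled points passed an adjusted p of 0.05. KRT16 was lower with ΔNp63α than with TAp63γ by 1.46 and KRT8 by 0.72, while KRT8 was higher with shDBD than with shTA by 0.69.

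The hairpins differed directly in 4 of 8 keratins, against 18.4% of all genes (60.3% with no overlap of the arrays). KRT8 was higher with shDBD, 1 keratin against 9.14% of all genes, and KRT14 (−0.44 ± 0.11, adjusted p = 0.0123), KRT15 (−0.70 ± 0.17, adjusted p = 0.0097) and KRT16 were lower, 3 keratins against 9.23%. With the arms fitted separately KRT5 (adjusted p = 0.0347) and KRT18 (0.00591) passed as well. The KRT14 call was lost when any 1 of the 4 arrays was left out (adjusted p = 0.0535 to 0.0905). The KRT15 call was lost without shDBD replicate 1 (0.0689), shDBD replicate 2 (0.0505) or shTA replicate 2 (0.071). The isoforms differed directly in 5 of 8 keratins, against 39.8% of all genes (45.8% with no overlap of the arrays). KRT15 was higher with ΔNp63α, 1 keratin against 19.2% of all genes, and KRT5, KRT7, KRT8 and KRT16 were lower, 4 keratins against 20.6%. These 5 calls were kept in all 15 fits that left out an array.

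Across the 15 arrays, centred on the mean of their arm, KRT5 and KRT14 ran together (Pearson r = 0.83), with 0.85 over the 6 knockdown arrays and 0.83 over the 9 overexpression arrays. Other pairs differed by arm: KRT5 and KRT16 gave 0.16 under knockdown and 0.90 under overexpression, KRT8 and KRT18 gave 0.70 and 0.16, and KRT16 and KRT18 gave −0.995 and −0.33. These values describe arrays that share a group or a vector and carry no test. Of 10265 other genes above the 20th percentile, those most like KRT14 were MAGED1 (0.98) and TFPI2, a protease inhibitor gene (0.98), and those most like KRT16 were RAB11FIP1, a vesicle recycling gene (0.98), and PYCARD, an inflammasome adaptor (0.97). Those most like KRT5 were TAGLN2 and ESYT1 (both 0.98). Those most like KRT18 were PTGES, a prostaglandin E synthase (0.97), and CPNE1 (0.97).

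Of 24 other keratins measured, 2 rose and 1 fell with shDBD, against 11.1% and 10.2% of all genes, and 5 rose and 0 fell with shTA, against 1.44% and 0.853%. With ΔNp63α 2 rose and 1 fell, against 12.3% and 16.6%, and with TAp63γ 3 and 1, against 20.5% and 22.8%. The median change over the 24 lay between 0.02 and 0.07 in these comparisons. KRT10, a type I chain of differentiating suprabasal cells, read 11.72 and 11.96 with the shRNA vector, 12.93 and 12.97 with shDBD, and 12.67 and 12.66 with shTA. Both hairpin groups lay above the vector. KRT10 rose by 1.11 ± 0.082 with shDBD (2.16-fold, adjusted p = 1.48e-07) and by 0.83 ± 0.082 with shTA (1.77-fold, adjusted p = 3.59e-05). All 3 of its probe sets, each marked as possibly binding other transcripts, were called higher with each hairpin, by 1.11 to 1.90 and by 0.83 to 1.42. KRT10 fell by 0.22 ± 0.067 with ΔNp63α (adjusted p = 0.0242) and rose by 0.31 ± 0.067 with TAp63γ (adjusted p = 0.00125). KRT1, its type II partner in epidermis, fell by 0.34 ± 0.11 with shDBD (adjusted p = 0.0391) and rose by 0.46 ± 0.11 with shTA (adjusted p = 0.0412). Its levels in the knockdown groups were modest (mean percentile 29.5 to 43.2). Whether the hairpin calls of keratins outside the chosen 10 hold with an array left out is not given here.

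KRT23, a type I keratin whose probe set, like those of KRT4 and KRT13, carries such a mark too, read 5.44, 4.90 and 5.21 with the overexpression vector, 6.55, 6.46 and 6.46 with ΔNp63α, and 8.04, 8.04 and 8.06 with TAp63γ. The 3 groups did not overlap, and 1 vector array was below its 20th percentile. KRT23 rose by 1.31 ± 0.10 with ΔNp63α (2.47-fold, adjusted p = 1.5e-07) and by 2.86 ± 0.10 with TAp63γ (7.27-fold, adjusted p = 5.81e-12). The vector arrays averaged the 21.4 percentile, near the low end, so these folds are best read as lower bounds; with values floored at the 20th percentile they were 2.37 and 6.99. Its change with shTA was 0.64 ± 0.13 (adjusted p = 0.0142). KRT33A, a hair keratin whose probe set may bind other transcripts, rose by 0.96 ± 0.096 with TAp63γ (adjusted p = 6.76e-07). KRT13, a type I keratin of mucosal epithelium, rose by 0.48 ± 0.12 with shDBD (adjusted p = 0.00869) and by 0.52 ± 0.12 with shTA (adjusted p = 0.0342). With ΔNp63α the KRT13 change was 0.32 (adjusted p = 0.0244), at levels below the 20th percentile on 5 of the 6 arrays, and 0.05 (adjusted p = 0.553) with values floored there. KRT4, its type II partner, rose by 0.60 ± 0.12 with shTA (adjusted p = 0.0115) but not with shDBD past the threshold (−0.10 ± 0.12), and its second probe set was not called with shTA (0.19). Between the hairpins (shDBD minus shTA) KRT1 differed by −0.80, KRT4 by −0.69 and KRT23 by −0.58, and between the isoforms (ΔNp63α minus TAp63γ) KRT23 differed by −1.56, KRT33A by −0.93 and KRT10 by −0.52, and each of these passed.

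**Figure D4:**
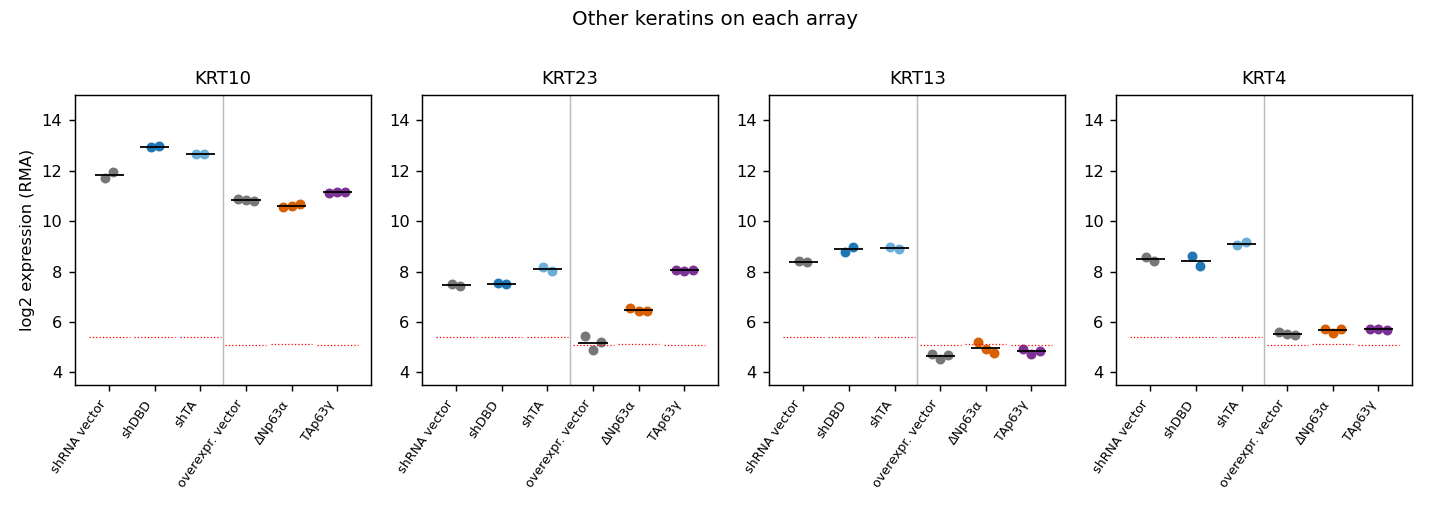
Levels of 4 keratins outside the chosen 10 on every array (y axis: RMA log2 expression; x axis: the 6 groups; black bars are group means, red dotted lines the mean 20th percentile of the group's arrays). KRT10 is higher with both hairpins than with their vector, KRT23 climbs from 5.18 to 6.49 and 8.05 in the overexpression arm, and KRT13 lies near or under the dotted lines there.

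Genes whose proteins bind or anchor keratin filaments changed in part. Of 14 measured, 3 rose and 4 fell with shDBD (21.3% of all genes in either direction), 2 rose and 1 fell with shTA (2.29%), 3 rose and 2 fell with ΔNp63α (28.9%), and 5 rose and 5 fell with TAp63γ (43.4%). The medians were −0.19, −0.02, 0.06 and 0.16 in that order. DSP, the desmosomal plakin that holds the filaments, rose by 0.82 ± 0.064 with TAp63γ (adjusted p = 4.69e-08), by 0.23 ± 0.064 with ΔNp63α (adjusted p = 0.0135) and by 0.43 ± 0.079 with shTA (adjusted p = 0.00762). DST, dystonin, whose epithelial form anchors filaments at hemidesmosomes, fell by 1.35 ± 0.11 with shDBD on its brightest probe set, and 4 of its 8 probe sets were called lower (range −1.35 to 0.11). JUP, plakoglobin, rose by 1.301 ± 0.10 with TAp63γ (adjusted p = 5.99e-08). PPL, periplakin, fell by 0.94 ± 0.073 with TAp63γ (adjusted p = 4.21e-08) and rose by 0.88 ± 0.09 with shDBD (adjusted p = 3.65e-06). DNAJB6, a co-chaperone that binds KRT18, fell by 1.56 ± 0.082 with ΔNp63α (adjusted p = 1.22e-09) and rose by 0.52 ± 0.082 with TAp63γ (adjusted p = 7.67e-05). SFN, the 14-3-3 protein of epithelial cells, rose with ΔNp63α (0.52 ± 0.046, adjusted p = 5.57e-07) and TAp63γ (0.88 ± 0.046, adjusted p = 5.1e-10) and fell with shDBD (−0.34 ± 0.057, adjusted p = 0.00039), and its 3 probe sets were called alike in each. Of 12 intermediate filament genes other than keratins, 0 rose and 2 fell with shDBD, 1 rose and 0 fell with shTA, 1 and 0 with ΔNp63α, and 1 and 1 with TAp63γ. VIM, vimentin, fell by 0.53 ± 0.10 with shDBD (adjusted p = 0.00131).

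Lineage genes other than keratins were also counted, to be read against the same shares of all genes (21.3% called with shDBD, 2.29% with shTA, 28.9% with ΔNp63α and 43.4% with TAp63γ). Of 17 basal genes, 2 rose and 9 fell with shDBD (median −0.58), 1 and 2 with shTA (0.02), 7 and 2 with ΔNp63α (0.21), and 9 and 3 with TAp63γ (0.31). SNAI2, a transcription factor of basal cells, fell by 2.07 ± 0.12 with shDBD (adjusted p = 1.19e-08). MME, of the same list, rose by 1.149 ± 0.086 with shDBD (adjusted p = 1.61e-07). The largest basal change with TAp63γ was that of TAGLN, a rise of 4.485 ± 0.097 (adjusted p = 3.72e-14). Of 23 luminal genes, 10 rose and 1 fell with shDBD (median 0.23), 2 and 1 with shTA (−0.04), 5 and 3 with ΔNp63α (0.00), and 6 and 5 with TAp63γ (0.03). EHF, an epithelial ETS factor, rose in all 4 comparisons, by 1.62 ± 0.12, 1.32 ± 0.12, 1.44 ± 0.10 and 2.07 ± 0.10 in that order. EPCAM, an epithelial adhesion molecule, fell by 1.36 ± 0.13 with TAp63γ (adjusted p = 6.2e-07). Of 17 squamous differentiation genes, 1 rose and 5 fell with shDBD, 5 and 1 with shTA, 9 and 0 with ΔNp63α, and 10 and 0 with TAp63γ (medians −0.18, 0.30, 0.30 and 0.38). The medians over all genes lay between −0.02 and 0.00 in these 4 comparisons.

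Other measures were also compared between the same groups. Counts of called genes are again to be read against the shares of all genes (21.3% with shDBD, 2.29% with shTA, 28.9% with ΔNp63α and 43.4% with TAp63γ). All 9 interferon genes measured rose with each isoform, and their summed level was 10.07 to 10.15 with the overexpression vector, 14.86 to 14.92 with ΔNp63α and 13.47 to 13.57 with TAp63γ. With shDBD 5 of 9 rose (11.99 to 12.07, vector 10.80 to 10.84), and with shTA 0 of 9 were called by limma. Of the other cell types, 1 of 10 fibroblast genes rose and 1 fell with shDBD (summed level 11.44 to 11.47, vector 10.60 to 10.62), 2 of 8 immune genes rose (10.87 to 11.04, vector 10.11 to 10.21) and 2 of 9 endothelial and adipocyte genes rose (9.57 to 9.59, vector 9.45 to 9.52). The fibroblast gene that rose was DCN (2.37) and the one that fell was FAP (−0.47), with a list median of 0.01. The largest immune rise was that of CD14 (1.27), with a list median of 0.06. With shTA 1 fibroblast gene rose (10.76 to 10.80). With ΔNp63α 1 fibroblast gene rose and 1 fell (10.04 to 10.18, vector 10.15 to 10.27), 1 immune gene fell (9.37 to 9.45, vector 9.62 to 9.73) and 2 endothelial and adipocyte genes rose (8.85 to 8.86, vector 8.68 to 8.77). With TAp63γ 2 fibroblast genes rose (10.45 to 10.49), 1 immune gene fell (9.35 to 9.40) and 2 endothelial and adipocyte genes rose (8.77 to 8.87). On all 15 arrays 1 fibroblast, 1 immune and 2 endothelial and adipocyte genes lay below the 20th percentile. The signal of the actin control probes at the 3′ end minus that at the 5′ end, a sign of RNA quality, was −0.087 ± 0.0099 (SD, n = 2) with the shRNA vector, 0.0665 ± 0.0262 with shDBD and 0.102 ± 0.14 with shTA. In the overexpression arm it was 0.17 ± 0.0579 (n = 3) with the vector, 0.163 ± 0.0594 with ΔNp63α and 0.077 ± 0.0665 with TAp63γ. In that arm the arrays lowest for 7 or 8 of 8 keratins had the highest actin value of their group. These were vector replicate 1 (0.235), ΔNp63α replicate 3 (0.231) and TAp63γ replicate 2 (0.136). The shRNA vector replicate 1, also lowest for 7 of 8, had the lower value of its group (−0.094, other array −0.08). For GAPDH control probes the difference was 0.141 on ΔNp63α replicate 3 and −0.066 to 0.037 on the other overexpression arrays. The part of these measures in the keratin changes was not tested.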

How the data were processed

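Expression was measured in 15 MCF-10A samples. The log2 values per probe set were made by the authors with RMA, per the submitters' processing notes; no version or build is named there. RMA equalizes arrays, so a shift of most transcripts would be hidden. Array medians were 7.189 to 7.213 in the knockdown arm and 6.951 to 6.983 in the overexpression arm, so comparisons were made within an arm. Of 22277 probe sets, 19064 had 1 gene symbol, 1043 several, 2108 none listed, and 62 were controls; 19052 matched RefSeq by Entrez ID. Each gene took its probe set with the highest mean over all arrays. limma 3.58.1 (R 4.3.3) estimated 6 group means from all arrays together (9 residual, 5.87 prior degrees of freedom, variance trend), with two-sided tests and Benjamini-Hochberg adjustment over 11963 genes at 0.05. It was tried on simulated data with independent normal noise, 200 of 11963 genes changed 2-fold and a single draw per comparison. It recovered 94.5% to 98.5% of these changes in the 6 comparisons, and 4% to 8.25% of its calls were false. That was over the nominal 5% in shDBD against shTA (8.25%) and ΔNp63α against vector (7.55%). Smaller changes, such as many of the keratin changes, and a spread that differs between the arms were not simulated. The named keratins are the 8 measured members in every comparison. KRT6A, also to be named, was not analysed here. The other keratins named are KRT10 and the 3 called with the largest change per comparison, and of each list some of the largest called rises and falls are named (not all), while VIM, DSP, DNAJB6 and SFN beyond the comparisons they led, and KRT1 and KRT13 with shTA, were picked after their values were seen. Members and lists were chosen with earlier results of these data known. Precision is limited by the number of arrays. Alternatives (probe sets, scaling, filters, arms apart, arrays left out) are in the closing section.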

Additional observations from a re-analysis of the deposited data

How the results depend on the processing

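For 48 keratin changes (8 genes in 6 comparisons), 24 alternatives gave 1128 refitted values. Of these, 1084 kept their side of the threshold, 34 lost a call and 9 gained a call. The last value, KRT19 between the isoforms, passed with its sign reversed (0.047 with values floored at the 20th percentile), where it is background. Some changes that were not called also switched sign, such as KRT7 with TAp63γ (0.065, and −0.016 with the mean of its probe sets). Counts of keratins called were 2 with shDBD (0 to 2 with an array left out; 4 with arms fitted separately), 3 with shTA (1 to 4 with an array left out; 1 with the replicate block), 4 between the hairpins (1 to 4; 6 with arms fitted separately), 6 with ΔNp63α (5 to 6), 6 with TAp63γ (6 to 6) and 5 between the isoforms (5 to 6). Without probe sets marked as shared between transcripts, which leaves 5 keratins, 3 were called with ΔNp63α and 3 between the isoforms, since KRT7, KRT8 and KRT18 are not measured. The ΔNp63α change of KRT8 also missed the threshold after quantile normalization (−0.26, adjusted p = 0.0706) and with the replicate block (0.0633); with shTA the block also ended the calls of KRT8 (0.109) and KRT15 (0.0558), and it changed no other keratin call. For the other genes named with ΔNp63α (KRT10, KRT23, DSP, DNAJB6, SFN and EHF), leaving out ΔNp63α replicate 3 kept each call. Over all genes, 274 were called with shTA, 150 with the block, 1064 with arms fitted separately, 133 without shared probe sets, and 87 to 472 with an array left out. The count between the hairpins was 2197, and 3359 with arms fitted separately, 1348 without shDBD replicate 1 and 1463 without shTA replicate 2; that with shDBD was 2543, and 1650 without shRNA vector replicate 1. Without shared probe sets the 5 other counts were 1465 (shDBD), 1269 (hairpins), 2109 (ΔNp63α, 3454 otherwise), 3256 (TAp63γ, 5187 otherwise) and 3008 (isoforms, 4762 otherwise) of 8369 genes. The replicate numbers were not taken as pairs. Deviations of same-numbered arrays correlated at 0.001 to 0.069 in the knockdown arm and −0.628 to 0.476 in the overexpression arm. In the overexpression arm 2 of 9 arrays correlated best with their own number. In the knockdown arm 6 of 6 did. With 2 arrays per group there, both deviations mirror each other, so that count cannot decide on pairing.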

Other observations

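Levels in both vector controls cross the arms, whose array medians differ, and are given without a test. KRT16 averaged 11.44 with the shRNA vector and 8.62 with the overexpression vector, KRT15 11.44 and 9.01, KRT14 13.74 and 11.63, and KRT8 11.68 and 9.98. KRT7 averaged 13.32 and 13.24. Of the 8 keratins, 6 were lower by more than 0.5 with the overexpression vector, as were 15 of 24 other keratins and 36.1% of all genes, and the median over all genes was −0.27. KRT13 (8.39 and 4.65) and KRT4 (8.51 and 5.54) differed most among the other keratins. KRT14 with ΔNp63α (13.53) and TAp63γ (13.71) read close to its level with the shRNA vector, while KRT16 with TAp63γ (10.17) and KRT15 with TAp63γ (7.66) stayed below theirs. These 3 KRT14 levels lie in the range in which array signal is known to saturate (mean percentile 99.2 to 99.4), so a difference between them could be hidden.

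TFPI2, among the genes most like KRT14, rose by 6.50 with ΔNp63α and by 6.54 with TAp63γ, and both of its probe sets were called (4.15 and 4.19 for the smaller). Its changes with shDBD (−0.28) and shTA (−0.07) were not called, whereas KRT14 fell with shDBD. It is named for its likeness to KRT14 and its values were seen first.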
